A study of Mus musculus with 30 samples.

Results

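The genes described here lie in 1 stretch of mouse chromosome 11, from 70000000 to 80000000 (GRCm38, GENCODE M21), and were chosen by position: protein-coding genes that start there and have at least 10 expected counts in at least 3 libraries. The stretch was picked because of its differences between Camk2d knockout and wild-type mice, so the differences between genotypes below are a description and carry no test. It held 231 protein-coding genes. Of these, 38 were under the count minimum and 3 were left out by name, which left 190 members of the 55385 genes in the tables. After the filter on low counts, 175 members were tested in kidney and 171 in retina. At the count minimum, the third-highest count was 10 for Alox12e, 10.4 for Gm9964 and 11.1 for Olfr397 among the members, against 9.74 for Olfr392, 9.42 for Olfr394 and 9.05 for Olfr410 just outside.

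RNA was sequenced from kidney (16 libraries) and retina (14 libraries) of 21 mice aged 16 weeks, 9 of which gave both organs. KO mice carried a global Camk2d knockout and WT mice were its wild-type; each was diabetic, Lepr(db/db), or non-diabetic, Lepr(+/+). Kidney had 4 libraries in each of KO diabetic, WT diabetic, KO non-diabetic and WT non-diabetic, and retina had 3, 4, 4 and 3 in the same order. A library's name joins K (kidney) or R (retina) to the number in its label, which is read as that of the mouse. Strain background and litter are not given in the sources used here, so the genotype at Camk2d and any difference between the families of the mice cannot be told apart. The labels give no sex; read from Xist and Y-linked counts, each kidney group held 2 males and 2 females, and males made up 1 of 3 KO diabetic, 2 of 4 WT diabetic, 2 of 4 KO non-diabetic and 2 of 3 WT non-diabetic retinas.

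The stretch holds genes of several kinds. Lipoxygenases such as Alox15 and Alox12 oxidise polyunsaturated fatty acids to lipid mediators, and mouse Alox15 is known from macrophages of body cavities. P2rx5 is a subunit of ATP-gated cation channels, Slc16a11 belongs to the monocarboxylate transporters, and Tm4sf5 is a small membrane protein related to tetraspanins. Camk2d, the gene removed in the KO mice, encodes a calcium- and calmodulin-activated protein kinase and lies on chromosome 3.

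Promoter sequence is shown for 3 members that were far lower in KO kidneys in both diabetic states or, for Alox12, were called lower in both. It is RefSeq sequence on GRCm38.p6, from up to 250 bases before the RefSeq start, without bases that the GENCODE gene covers, and 158 of the 190 members had an entry. Capitals mark a GC box (GGGCGG) or a CCAAT box (CCAAT), each searched on both strands. The windows are chr11:70255371-70255620 on the minus strand, chr11:70505024-70505243 on the plus strand and chr11:71033618-71033867 on the minus strand.
Alox12: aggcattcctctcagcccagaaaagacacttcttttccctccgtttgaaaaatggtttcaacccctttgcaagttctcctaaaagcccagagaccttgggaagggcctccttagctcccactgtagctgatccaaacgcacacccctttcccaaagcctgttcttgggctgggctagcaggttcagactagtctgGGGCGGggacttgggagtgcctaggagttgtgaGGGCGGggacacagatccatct
Tm4sf5: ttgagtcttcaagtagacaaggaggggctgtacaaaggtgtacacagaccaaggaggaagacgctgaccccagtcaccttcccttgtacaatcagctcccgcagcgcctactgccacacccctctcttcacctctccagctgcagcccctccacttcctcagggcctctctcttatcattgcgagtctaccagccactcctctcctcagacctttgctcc
6330403K07Rik: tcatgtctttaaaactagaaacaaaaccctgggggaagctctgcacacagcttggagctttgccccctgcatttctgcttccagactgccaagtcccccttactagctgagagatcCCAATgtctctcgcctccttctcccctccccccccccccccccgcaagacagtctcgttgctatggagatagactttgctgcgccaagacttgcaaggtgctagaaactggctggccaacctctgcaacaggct
The Alox12 window held 2 GC boxes, the 6330403K07Rik window 1 CCAAT box, and the Tm4sf5 window neither. Over 27025 promoters of 250 bases, 32.9% held a GC box and 34.5% a CCAAT box. Other motifs were searched on both strands and were in none of these 3 windows. The TATA box (TATAAA) was in 13% of all promoters, the core letters of CRX sites (TAATCC) were in 6.38% and the E-box (CACGTG) was in 6.05%. No motif was shared by the 3 windows.

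Camk2d itself followed the labels in every library. It lay at 0.0864 to 0.557 CPM (counts scaled to normalised library sizes) in KO kidneys and 10.3 to 19.8 CPM in WT kidneys, and at 3.09 to 4.25 CPM in KO retinas and 285 to 343 CPM in WT retinas. Library totals were 19870190 to 22642769 counts in kidney and 19979111 to 20818899 in retina. Mitochondrial transcripts made up 22% to 45.4% of kidney counts and 6% to 7.7% of retina counts. In KO diabetic kidneys they made up 31.9%, 31.5%, 45.4% and 22.2% (K587, K588, K591 and K596). WT diabetic kidneys had 24.5% to 26.1%, so K587, K588 and K591 lay above this range and K596 below it. Non-diabetic kidneys had 22% to 29.2% in KO and 23.5% to 36.4% in WT mice.

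A member is said to be called where its edgeR adjusted p was under 0.05; between genotypes this is a label for the size of a difference in these libraries and supports nothing. In KO kidneys 5 members were called in non-diabetic mice, 0 higher and 5 lower (2.86% of the members tested, against a background of 0.435% of all genes tested), and 73 in diabetic mice (41.7%, against 19.7%). Of these, 4 were lower in both diabetic states, were called in both and had no overlap between genotypes: Tm4sf5, Alox15, 6330403K07Rik and Slc16a11. All 4 start within 1 Mb of each other, and no member met the same terms in the other direction. The calls of Tm4sf5 and 6330403K07Rik held in both states for each of 16 libraries left out in turn and under 8 other settings. That of Alox15 ended in diabetic mice under 1 of the 8 settings. That of Slc16a11 ended in non-diabetic mice without K559 or K584 and under 3 of 8 settings. Alox15 (ENSMUSG00000018924.6, chr11:70344152-70352031, minus strand) had 0.0865, 0.128, 0.0604 and 0.216 CPM in KO diabetic kidneys, against 3.50, 2.97, 1.62 and 1.72 CPM in WT diabetic kidneys. In non-diabetic mice it had 0, 0.0982, 0.213 and 0.196 CPM in KO kidneys and 30.7, 151, 143 and 66.7 CPM in WT kidneys. Every KO kidney lay below every WT kidney, and the WT kidneys themselves split by diabetes. The log2 fold change, KO over WT, was −4.21 ± 0.68 (SE) in diabetic and −9.62 ± 0.67 in non-diabetic mice, from 11 and 10 counts summed over the 4 KO libraries of each state. Fold changes against so few counts depend on the prior count of the fit.

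Tm4sf5 (ENSMUSG00000018919.10, chr11:70505244-70511178, plus strand) had 0.0432, 0.0856, 0.121 and 0 CPM in KO diabetic kidneys, against 51.2, 61.7, 42.9 and 43.4 CPM in WT diabetic kidneys. In non-diabetic mice it had 0.0396, 0.0982, 0.0532 and 0.0982 CPM in KO kidneys and 7.84, 26.9, 23.6 and 21.0 CPM in WT kidneys. KO kidneys held 5 and 6 counts in all in the diabetic and non-diabetic state, against 4417 and 1775 counts in WT kidneys. The log2 fold changes were −9.60 ± 0.50 and −8.01 ± 0.49. The uncharacterised gene 6330403K07Rik (ENSMUSG00000018451.7, chr11:71031941-71033513) averaged 0.149 ± 0.028 CPM in KO diabetic kidneys and 5.08 ± 0.466 CPM in WT diabetic kidneys (SD, n = 4 each). In non-diabetic mice the means were 0.204 ± 0.207 CPM in KO and 6.23 ± 2.37 CPM in WT kidneys, and the log2 fold changes were −5.03 ± 0.48 and −4.81 ± 0.46. Alox15, Tm4sf5 and 6330403K07Rik were thus at or near the detection floor in KO kidneys, which was not so for Slc16a11. Slc16a11, at chr11:70212752-70216417, kept 15.6 to 21.9 CPM in KO diabetic kidneys, against 32.2 to 44.5 CPM in WT diabetic kidneys, and 21.2 to 26.3 CPM in KO non-diabetic kidneys, against 30.2 to 53.8 CPM in WT non-diabetic kidneys (log2 fold changes −1.01 ± 0.17 and −1.02 ± 0.17).

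On the scale that divides by transcript length, the deposited TPM, Alox15 and Slc16a11 had the highest levels of these genes in WT non-diabetic kidneys, with 42.2 ± 30.01 and 37.7 ± 9.34 TPM (SD, n = 4). Tm4sf5 followed with 22.7 ± 12.0 TPM, and 6330403K07Rik, Alox12 and P2rx5 had 4.27 ± 1.80, 3.90 ± 1.88 and 1.99 ± 1.06 TPM. The SDs of Alox15, Slc16a11 and Tm4sf5 overlap. In WT diabetic kidneys the order was another: Tm4sf5 had 64.6 ± 11.1 TPM, Slc16a11 31.3 ± 4.23 TPM, Alox12 4.94 ± 0.648 TPM and Alox15 1.32 ± 0.367 TPM.

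Alox12, the platelet-type lipoxygenase, was called lower in KO kidneys of both states as well, but the genotypes overlapped in non-diabetic mice. It had 5.10, 5.61, 6.59 and 3.16 CPM in KO diabetic kidneys, against 10.9, 13.7, 15.8 and 14.6 CPM in WT diabetic kidneys. In non-diabetic mice it had 6.06, 3.78, 3.14 and 3.39 CPM in KO kidneys and 5.11, 15.2, 14.1 and 12.1 CPM in WT kidneys. The WT library at 5.11 CPM, K812, was within the KO range. With the 4 genes above it makes up the 5 members called in non-diabetic kidneys. The non-diabetic call of Alox12 ended for 13 of the 16 libraries left out in turn and under 5 of 8 other settings, with log2 fold changes of −1.74 to −1.32 over the libraries left out.

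**Figure D1:**
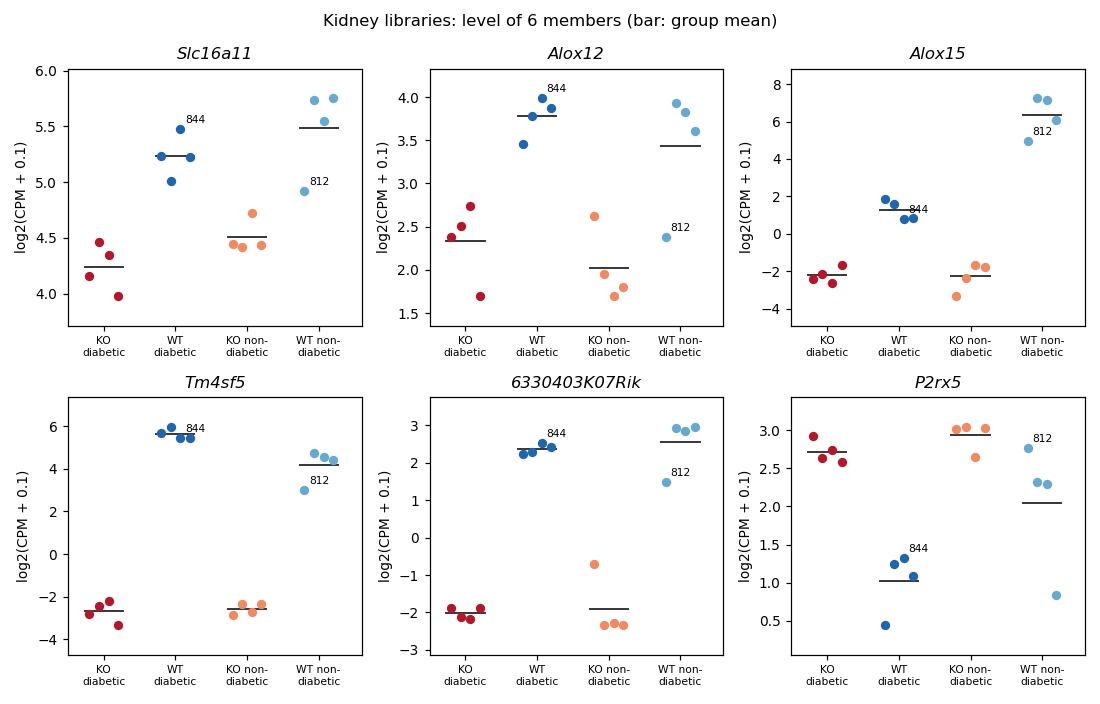
Level of 6 members in each kidney library, as log2(CPM + 0.1), with KO left of WT in each diabetic state and a bar at the group mean. Tm4sf5, Alox15 and 6330403K07Rik are near the floor in all 8 KO kidneys, and WT library K812 is the lowest WT non-diabetic library in every panel but P2rx5.

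Other members were higher in KO kidneys. Haspin, a histone kinase of mitosis, had 2.60 to 3.85 CPM in KO diabetic kidneys, against 1.21 to 2.38 CPM in WT diabetic kidneys, and 2.55 to 3.98 CPM in KO non-diabetic kidneys, against 0.953 to 1.76 CPM in WT non-diabetic kidneys. P2rx5 had 7.52, 6.12, 6.59 and 5.88 CPM in KO diabetic kidneys, against 1.26, 2.26, 2.40 and 2.02 CPM in WT diabetic kidneys (log2 fold change 1.71 ± 0.31). In non-diabetic mice it had 8.04, 8.15, 6.17 and 8.05 CPM in KO kidneys and 6.69, 4.89, 4.79 and 1.68 CPM in WT kidneys, where K812 at 6.69 CPM overlapped the KO range. Mgl2, a macrophage galactose lectin with 77.2% unique sequence, had 1.17 to 3.93 CPM in KO diabetic kidneys and 0.0898 to 0.176 CPM in WT diabetic kidneys. Ggt6, of the gamma-glutamyltransferase family, had 10.1 to 12.0 CPM in KO diabetic kidneys and 1.14 to 1.51 CPM in WT diabetic kidneys. Over all 16 kidneys, 9 members had no overlap between genotypes (5.14% of members, against a background of 0.677%). Ggt6, Haspin, Med31 and Nlrp1b were higher, and 6330403K07Rik, Alox15, Rabep1, Slc16a11 and Tm4sf5 were lower.

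Of the 73 members called in diabetic kidneys, 39 were higher and 34 lower in KO mice, and 45 members had no overlap (25.7%, against 15.3%). With the mitochondrial share of each library in the fit, 18 members were called. That mitochondrial share was above the WT diabetic range in K587, K588 and K591 and below it in K596. With 1 library left out, 20 (without K645) to 96 (without K596) members were called. In those fits the share of all genes called is not given here. Macrophage markers were higher there too: the 8 of the list, summed, had 102 to 146 CPM in KO diabetic kidneys and 33.9 to 58.6 CPM in WT diabetic kidneys, and 8 of 8 were called. Proximal tubule markers were lower, with summed levels of 4099 to 7256 CPM in KO diabetic kidneys and 7729 to 11340 CPM in WT diabetic kidneys, and 3 of 5 called lower. The part of both in the members' differences was not tested.

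By role, the counts of members called in diabetic kidneys are read against the 19.7% of all genes called, and nothing is taken from them as particular to a list. Of the immune genes tested, 5 of 12 were called higher and 2 lower, and of the transcription and chromatin regulators 5 of 14 higher and 2 lower. The kinases and adaptors had 5 of 18 higher and 2 lower, the metabolism genes 3 of 10 higher and 2 lower, and the channels 3 of 4 higher and 0 lower. Of the endosome and lysosome genes 0 of 12 were higher and 6 lower, of the solute carriers 1 of 10 higher and 4 lower, and of the lipoxygenases 0 of 2 higher and 2 lower. The phospholipid enzymes had 1 of 7 higher and 2 lower, the RNA processing genes 2 of 14 higher and 2 lower, and the plasma proteins and the photoreceptor genes 1 of 2 higher each. The median log2 fold change of the tested members was −0.01, and that of all genes 0.04.

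The large differences in non-diabetic mice sat at the low end of the stretch. Of the members with no overlap between non-diabetic genotypes and at least a 2-fold difference, kidney had 10 (5.71% of members, against a background of 1.27%) and retina 7 (4.09%, against 1.34%), and each of them started between 70 and 74 Mb. With no minimum fold, 20 members did not overlap in kidney (11.4%, against 3.86%) and 39 in retina (22.8%, against 13.5%). Some of these lay further along, such as 2 at 76 to 77 Mb in kidney and 7 in retina. Of the 10 kidney members with at least a 2-fold difference, 5 started at 70 to 71 Mb and 2 at 71 to 72 Mb. The others were 2 at 72 to 73 Mb and 1 at 73 to 74 Mb. No member without overlap and with at least a 2-fold difference started between 74 and 80 Mb, where kidney had 100 tested members and retina 99. The adjoining 10 Mb held 2 such genes of 129 tested before the stretch and 0 of 100 after it in kidney, and 5 of 139 before and 0 of 98 after in retina. At the ends, the first 3 members, Dvl2, Dlg4 and Asgr1, had log2 fold changes of −0.32, 0.5 and −2.77 in non-diabetic kidney, and none was called there. The last genes outside the start, Ctdnep1, Gabarap and Phf23, had 0.18, 0.13 and −0.15. The last members, Rab11fip4, Utp6 and Suz12, had 0.05, 0.04 and 0.15, and the first genes beyond the end, Crlf3, Atad5 and Tefm, had 0.11, 0.49 and −0.01.

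**Figure D2:**
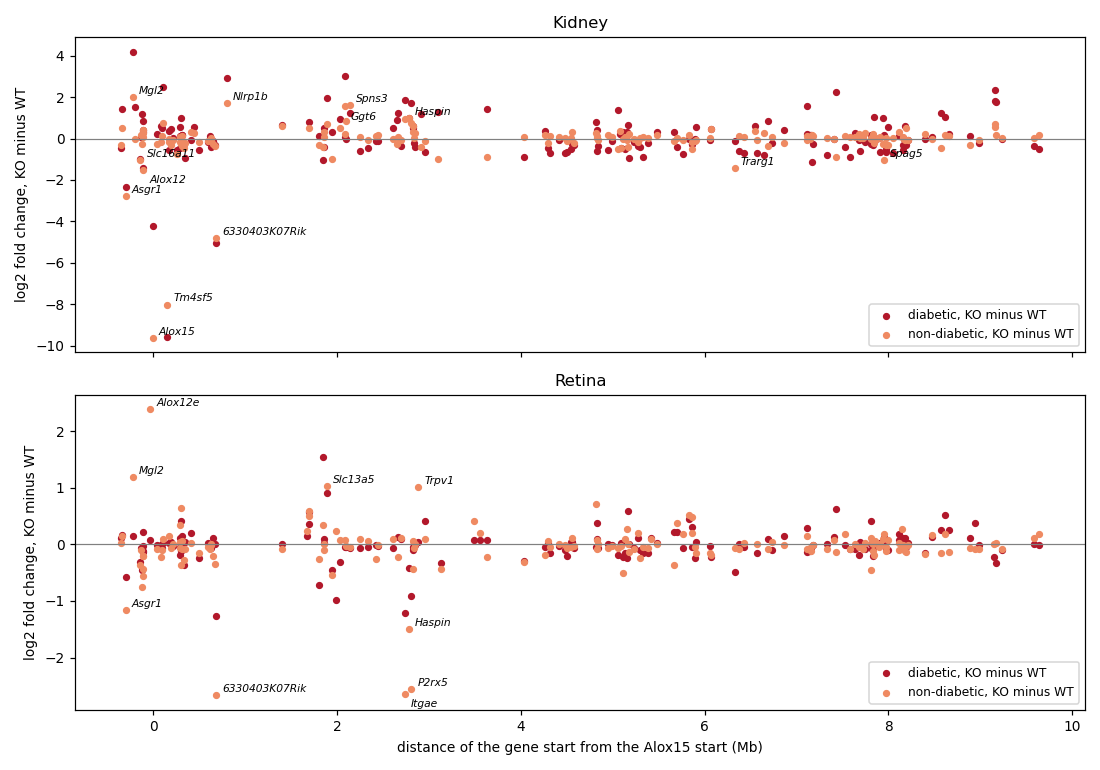
Log2 fold change of each tested member, KO over WT, against the distance of its start from that of Alox15 in Mb, for kidney (top) and retina (bottom) in diabetic (dark red) and non-diabetic (orange) mice. Members at −1 or below, or at 1 or above, in non-diabetic mice are named, and Tm4sf5 and Alox15 have the lowest values in kidney.

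In retina several members at 70 to 74 Mb did not follow the Camk2d label, so the genes are named here by position and not by genotype. Alox15 and Tm4sf5 were near 0 in every retina, with at most 0.343 and 0.197 CPM. The gene 6330403K07Rik had 23.3, 26.2 and 20.4 CPM in KO diabetic retinas. The WT diabetic retinas R844, R915, R942 and R954 had 156, 24.2, 22.9 and 20.4 CPM. In non-diabetic mice it had 20.02, 21.8, 22.9 and 22.2 CPM in KO retinas and 98.7, 152 and 164 CPM in WT retinas. R844 was thus among the WT non-diabetic retinas, and R915, R942 and R954, which had 316 to 322 CPM of Camk2d, were within the KO range.

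P2rx5 (ENSMUSG00000005950.14, chr11:73160421-73172685, plus strand) showed the same split. It had 2.36, 2.27 and 2.67 CPM in KO diabetic retinas, against 10.9 CPM in R844 and 2.47, 2.39 and 2.64 CPM in R915, R942 and R954. In non-diabetic mice it had 2.06, 1.65, 2.65 and 2.15 CPM in KO retinas and 8.27, 15.9 and 13.3 CPM in WT retinas. Itgae, the integrin alpha E chain of lymphocytes and dendritic cells in epithelia, had 1.06, 0.723 and 1.24 CPM in KO diabetic retinas, against 6.05 CPM in R844 and 0.988, 0.996 and 1.27 CPM in R915, R942 and R954. In non-diabetic mice Itgae had 0.733 to 1.42 CPM in KO retinas and 3.91 to 8.03 CPM in WT retinas. The log2 fold changes, KO over WT, of 6330403K07Rik, P2rx5 and Itgae were −2.67 ± 0.55, −2.55 ± 0.45 and −2.64 ± 0.54 in non-diabetic retinas. In diabetic retinas they were −1.26 ± 0.57, −0.92 ± 0.47 and −1.21 ± 0.59 with all libraries, and −2.74, −2.16 and −2.58 without R915, R942 and R954, where R844 alone stands for the WT group. Without R844 they were 0.05, −0.04 and −0.11.

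**Figure D3:**
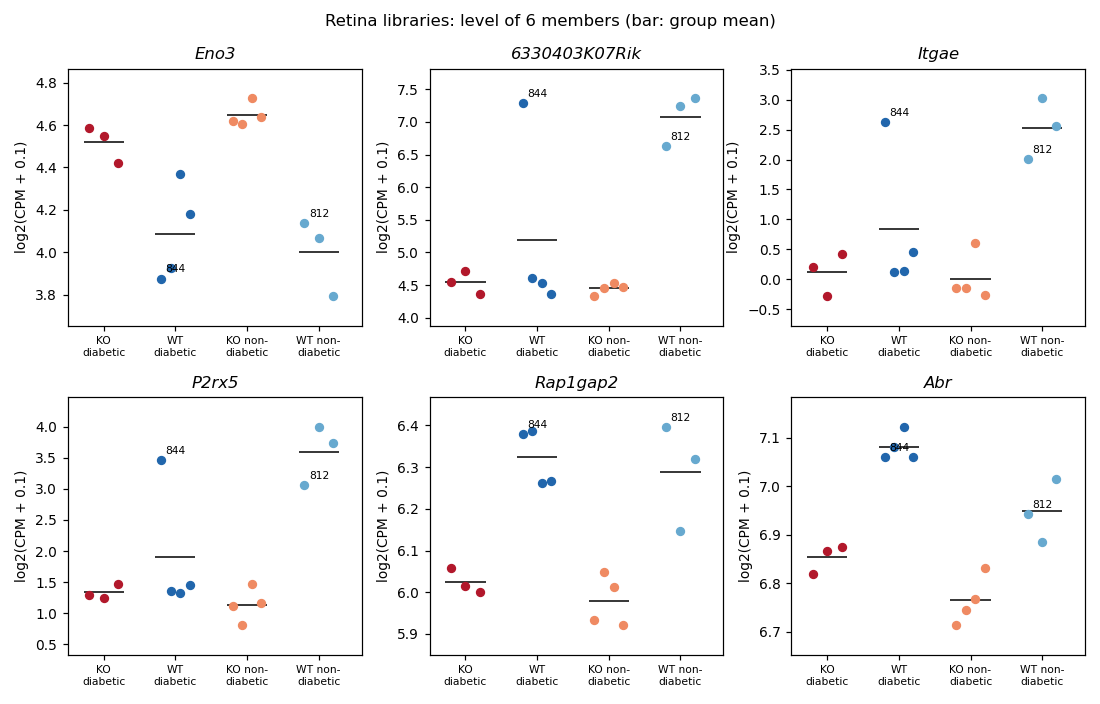
Level of 6 members in each retina library, as log2(CPM + 0.1), with KO left of WT in each diabetic state and a bar at the group mean. For 6330403K07Rik, Itgae and P2rx5, WT diabetic library R844 lies with the WT non-diabetic retinas and the other 3 WT diabetic libraries lie with the KO retinas, whereas Rap1gap2 and Abr separate KO from WT in all 14 libraries.

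Rap1gap2 and Abr, further along the stretch, kept to the label. Rap1gap2, which switches off the small GTPase Rap and starts at 74383356, had 63.9 to 66.5 CPM in KO diabetic retinas, against 76.6 to 83.6 CPM in WT diabetic retinas, and 60.5 to 66.1 CPM in KO non-diabetic retinas, against 70.8 to 84.1 CPM in WT non-diabetic retinas. Its log2 fold changes were −0.30 ± 0.06 and −0.31 ± 0.06, and it was the member called in both states with no overlap in either. In diabetic mice its call ended without R587, R588, R591 or R915, each left out alone, and under 4 of 8 other settings. The non-diabetic call ended without R559, R590, R812 or R852 and under 1 of 8 other settings, with log2 fold changes of −0.32 to −0.28 and −0.37 to −0.25 over the libraries left out. Abr, which starts at 76416734, had 113 to 117 CPM in KO diabetic retinas and 133 to 139 CPM in WT diabetic retinas, a log2 fold change of −0.23 ± 0.05. Eno3, the muscle enolase, and Slc13a5, a citrate carrier, were higher in KO retinas of both states. Eno3 had 21.3 to 23.9 CPM in KO diabetic retinas and 14.6, 15.1, 20.6 and 18.0 CPM in R844, R915, R942 and R954. Slc13a5 had 10.8 to 14.6 CPM in KO diabetic retinas and 3.92, 7.21, 8.96 and 6.60 CPM in the same WT libraries, so R915, R942 and R954 lay between R844 and the KO retinas.

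Of the members tested in retina, 8 were called in non-diabetic mice, 3 higher (Eno3, Pitpnm3 and Vps53) and 5 lower in KO (4.68%, against a background of 1.14%). In diabetic mice 4 were called, Ovca2 and Ksr1 higher and Rap1gap2 and Abr lower (2.34%, against 1.78%), and 26 had no overlap (15.2%, against 13.3%). Over all 14 retinas 5 members had no overlap (2.92%, against 1.01%): Eno3, Fam57a and Slc13a5 were higher and Abr and Rap1gap2 lower in KO. Pitpnm3, a phosphatidylinositol transfer protein linked in humans to cone dystrophy, had 386 to 451 CPM in KO non-diabetic retinas and 283 to 330 CPM in WT non-diabetic retinas.

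To set the libraries side by side, each was placed between the genotypes: 0 is the mean of KO non-diabetic and 1 that of WT non-diabetic libraries of its organ, on log2(CPM + 0.1). The members used were the 10 in kidney and 7 in retina that had no overlap and at least a 2-fold difference there, so these groups lie apart by construction and only the diabetic libraries and the spread within a group are informative. R844 was nearer to WT for 7 of 7 members, with a median place of 1.08. R915 was nearer to KO for 6 of 7, R942 for 7 of 7 and R954 for 6 of 7, with medians of 0.09, 0.05 and 0.13. The 4 WT diabetic kidneys were nearer to WT for 8, 9, 8 and 7 of 10 members, with medians of 0.98 to 1.18. Single members strayed from these medians, since a place also takes in any diabetes effect. In K597, K645, K844 and K877, Alox15 lay at 0.48, 0.45, 0.35 and 0.36, nearer to KO, and Mgl2 at 2.1, 1.91, 1.82 and 1.81. KO diabetic libraries had medians of −0.11 to 0.04 in kidney and 0.06 to 0.11 in retina. K844 and R844 came from the same mouse, and both were near WT, at 1.12 and 1.08. Kidneys of the mice of R915, R942 and R954 were not analysed here.

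**Figure D4:**
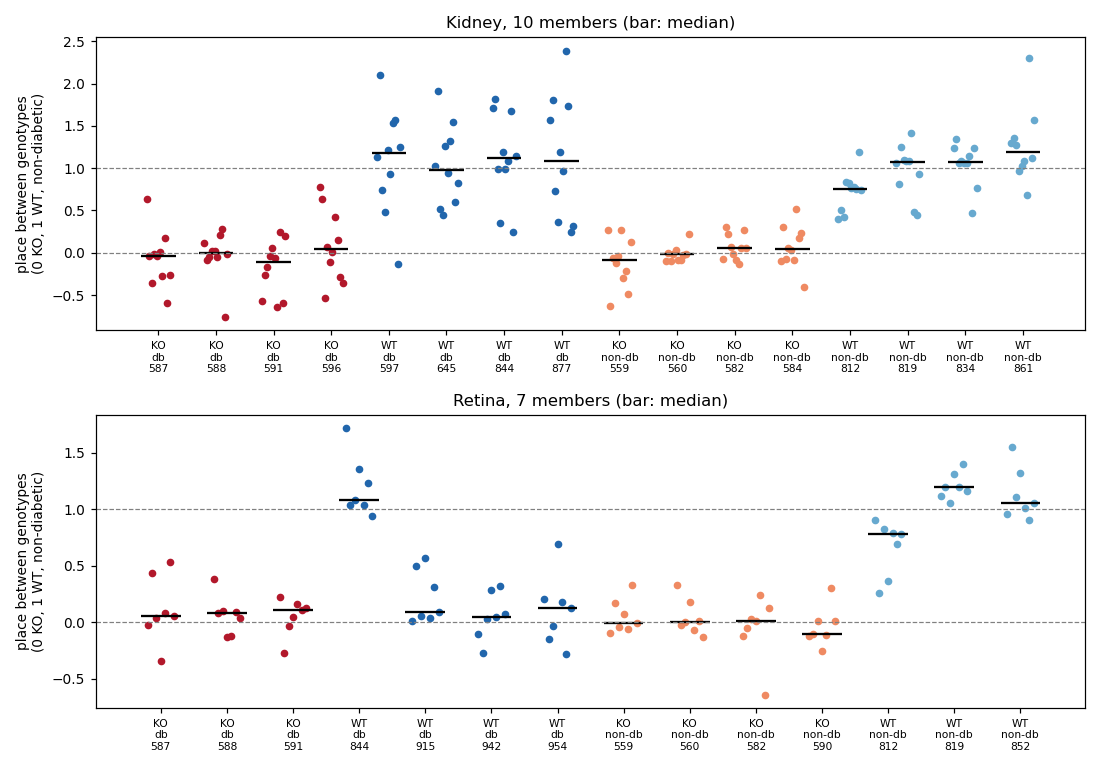
Place of each library between KO non-diabetic (0) and WT non-diabetic (1), with KO left of WT in each diabetic state, a point per member and a bar at the median, for 10 kidney members (top) and 7 retina members (bottom). WT diabetic retinas R915, R942 and R954 lie near 0 and R844 near 1, and K812 and R812 are the lowest of the WT non-diabetic libraries of their organs, at 0.75 and 0.78.

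The WT non-diabetic mouse that gave K812 and R812, a male, had lower levels than the rest of its group for several members. Its kidney had 21.5% of the median of the other WT non-diabetic kidneys for Alox15, 33.3% for Tm4sf5, 35.6% for 6330403K07Rik, 36.2% for Alox12, 24.3% for Asgr1 and 56.8% for Slc16a11. Its retina had 62.4% of the median of the others for 6330403K07Rik, 56.7% for P2rx5, 56.6% for Itgae and 90.2% for Asgr1. Other members were not low in K812: P2rx5, at 6.69 CPM, was the highest of its group, and Trarg1 had 14.97 CPM, against 2.02 to 2.57 CPM in the other WT non-diabetic kidneys. Among WT non-diabetic kidneys Alox15 had 30.7 and 66.7 CPM in the males K812 and K861, and 151 and 143 CPM in the females K819 and K834. Both libraries were within the WT range for Camk2d, at 14.6 and 331 CPM. K812 also had the highest summed level of 8 adipose markers, 1279 CPM, against 77.8 to 384 CPM in the other WT non-diabetic kidneys, whereas R812 had 32.4 CPM, against 26.2 and 33.0 CPM. Mesothelium markers, summed, had 40.1 CPM in K812, against 1.96 to 3.40 CPM in the other WT non-diabetic kidneys. The part of sex and of these markers in the levels of K812 was not tested.

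Several members differed in opposite directions between the organs. Haspin was higher in KO non-diabetic kidneys (log2 fold change 1.01 ± 0.26) and lower in KO non-diabetic retinas (−1.50 ± 0.48), with no overlap in either. Abr was higher in KO kidneys of both states (0.48 ± 0.12 and 0.44 ± 0.12 in diabetic and non-diabetic mice) and lower in KO retinas. P2rx5 and Itgae were higher in KO diabetic kidneys (1.71 ± 0.31 and 1.86 ± 0.37) and lower in KO non-diabetic retinas, and in non-diabetic kidneys, where the genotypes overlapped, they had 0.75 ± 0.29 and 0.94 ± 0.35. Haspin lies on the minus strand inside Itgae, and reads of the 2 genes cannot be told apart by strand where the counting does not use it.

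Diabetes within a genotype was not used to choose the genes, so these contrasts were tested, by edgeR's quasi-likelihood method, with Benjamini-Hochberg adjusted p-values taken across every gene tested in an organ. The p-values measure the spread between these mice, whose litters are not given. In WT kidneys Alox15 fell and Tm4sf5 rose, whereas both were near 0 in KO kidneys of either state. Alox15 averaged 2.45 ± 0.934 CPM in WT diabetic and 97.9 ± 58.8 CPM in WT non-diabetic kidneys (SD, n = 4 each; log2 fold change −5.32 ± 0.49, edgeR adjusted p = 9.42e-05). Tm4sf5 averaged 49.8 ± 8.77 CPM in WT diabetic and 19.8 ± 8.34 CPM in WT non-diabetic kidneys (1.33 ± 0.29, edgeR adjusted p = 0.0128). Neither pair of groups overlapped. Without K812, which was low for both, the changes were −5.61 and 1.07, and with sex in the fit they were −5.19 and 1.37. Both stayed called without each of the 16 kidney libraries in turn and under 8 other settings, with adjusted p of at most 0.0024 for Alox15 and 0.0475 for Tm4sf5 over these 24 fits.

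In all, 18 members were called for diabetes in WT kidneys, 5 higher and 13 lower (10.3% of members, against a background of 7.29%), and 42 had no overlap (24%, against 18.7%). With 1 library left out the calls numbered 7 (without K597) to 34 (without K596), fits whose share of all genes called is not given here. Spns2, which exports sphingosine phosphate, its relative Spns3, the amino acid carrier Slc43a2 and the repressor Mnt rose together with Tm4sf5. The calls of Spns2, Spns3 and Mnt, and those of Coro6, Ggt6, Mgl2, Nxn and Wscd1 among the members that fell, each ended for 5 to 10 of the 16 libraries left out, K597 among them every time. Slc43a2 had 202, 248, 120 and 155 CPM in WT diabetic kidneys, against 90.7, 77.5, 68.2 and 96.7 CPM in WT non-diabetic kidneys (log2 fold change 1.12 ± 0.25, edgeR adjusted p = 0.0143), a call that ended without K645. Among those that fell were Bcl6b, a transcriptional repressor of endothelium and lymphocytes, and Zmynd15, a zinc finger gene best known from sperm development. Zmynd15 overlaps another gene, and 88.6% of its sequence is unique. Bcl6b averaged 2.06 CPM over its WT diabetic and 6.14 CPM over its WT non-diabetic kidneys (−1.57 ± 0.26, edgeR adjusted p = 0.004). Zmynd15 had 1.80 to 2.47 CPM in WT diabetic and 4.47 to 6.34 CPM in WT non-diabetic kidneys (−1.32 ± 0.25, edgeR adjusted p = 0.00767). Proca1 had 1.06 to 2.01 CPM in WT diabetic and 2.24 to 5.06 CPM in WT non-diabetic kidneys (−1.37 ± 0.29, edgeR adjusted p = 0.0114). These 3 stayed called without each library in turn and lost the call only with limma-trend on TPM (adjusted p 0.0544, 0.301 and 0.094).

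Of 12 immune genes tested, 3 fell in WT diabetic kidneys and none rose, against 7.29% of all genes called, and whether the list differs from other genes was not tested. Of the solute carriers 3 of 10 rose, of the transcription and chromatin regulators 1 of 14 rose and 2 fell, of the metabolism genes 2 of 10 fell, of the lipoxygenases 1 of 2 and of the channels 1 of 4 fell, and the other lists had no call. Nos2, the inducible nitric oxide synthase, had 0.131 to 0.220 CPM in WT diabetic and 0.280 to 1.01 CPM in WT non-diabetic kidneys (−1.86 ± 0.51, edgeR adjusted p = 0.0376). The call of Nos2 ended without K582, K597, K645, K844, K877, K812 or K834, with changes of −2.09 to −1.53. Evi2a and Evi2b, blood cell genes inside an intron of Nf1, fell by 1.54 ± 0.34 and 1.88 ± 0.30 on the log2 scale (edgeR adjusted p = 0.0143 and 0.0035). Both overlap Evi2, and 82.4% of the Evi2a sequence but only 1.4% of the Evi2b sequence is unique, so the value of Evi2b is uncertain. The call of Evi2a ended without K597 or K645, with changes of −1.69 to −1.41 over the libraries left out. Macrophage markers moved with these genes: the 8 of the list, summed, had 33.9 to 58.6 CPM in WT diabetic and 71.0 to 136 CPM in WT non-diabetic kidneys, with 3 of 8 called lower and none at 0. Adipose markers, summed, had 20.1 to 70.9 CPM in WT diabetic and 77.8 to 1279 CPM in WT non-diabetic kidneys, with 4 of 8 called lower. Markers of peritoneal macrophages, 6 genes of which 2 were tested, had 5.05 to 7.20 CPM in WT diabetic and 8.32 to 9.36 CPM in WT non-diabetic kidneys, with 0 called and Serpinb2 at 0 in the WT diabetic group. Proximal tubule markers, summed, had 7729 to 11340 CPM in WT diabetic and 5380 to 8235 CPM in WT non-diabetic kidneys, with 1 of 5 called higher. The part of these cells in the changes was not tested, and in whole organs fewer cells of a type and less RNA per cell cannot be told apart.

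P2rx5 fell in WT diabetic kidneys, with 1.99 ± 0.511 CPM in the diabetic and 4.51 ± 2.08 CPM in the non-diabetic group (SD, n = 4 each; −1.19 ± 0.31, edgeR adjusted p = 0.0295). The groups overlapped, since K861 at 1.68 CPM lay within the diabetic range. The call ended without K597, K645, K877, K812, K819 or K834, with changes of −1.46 to −0.94 over all libraries left out.

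In KO kidneys no member was called for diabetes (0%, against a background of 0.077%), and 2 were called by DESeq2. At an unadjusted edgeR p under 0.05 there were 19 of 175 members, against 2620 of all 18177 genes tested. Without K596, 18 members were called there. The interaction, the diabetes effect in KO minus that in WT kidneys, was called for no member (background 0%). It also equals the KO against WT difference in diabetic mice minus that in non-diabetic mice, and those differences chose the stretch. Its calls and p-values are therefore a description, like those between genotypes. At an unadjusted edgeR p under 0.05 there were 65 of 175 members, against 5301 of 18177 genes. DESeq2 called 18 members for the interaction, and edgeR without K596 called 66. For fits other than the main one the share of all genes called is not given here, so their counts are not read as particular to the members. The interaction was 1.75 ± 0.34 for Zmynd15 (edgeR adjusted p = 0.0665), 1.78 ± 0.41 for Evi2b (0.0714), 5.41 ± 1.34 for Alox15 (0.074) and 1.43 ± 0.36 for Bcl6b (0.074). With sex in the fit 16 members were called, Alox15 among them (5.28, edgeR adjusted p = 0.0497). Alox15 was also called by DESeq2 (5.34, DESeq2 adjusted p = 2.69e-05) and by limma-trend on TPM (3.97, limma-trend adjusted p = 0.0293). These were the only 3 of its 23 other fits with a call. Whether the diabetes effects of KO and WT kidneys are called different thus depends on the method, on the sex term and on K596. In KO kidneys the diabetes effect on Alox15 and Tm4sf5 was 0.09 ± 1.08 and −0.26 ± 0.98 and rested on the few counts given above.

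**Figure D5:**
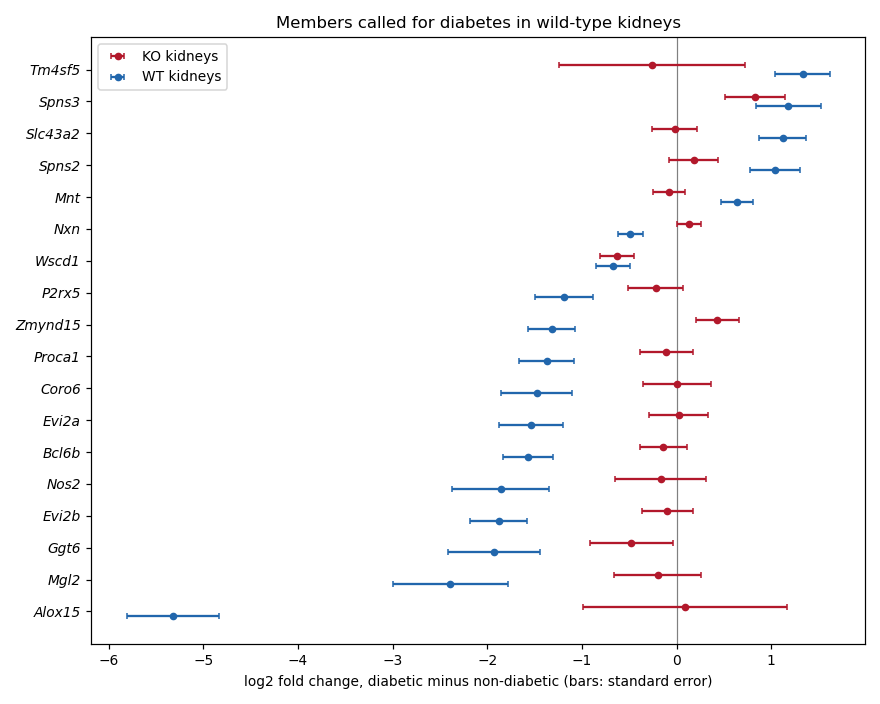
Log2 fold change, diabetic over non-diabetic, with standard errors in KO kidneys (red) and WT kidneys (blue) for the 18 members called in WT kidneys. The WT values run from −5.32 for Alox15 to 1.33 for Tm4sf5, and none of the KO values was called.

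In WT retinas 7 members were called for diabetes (4.09%, against a background of 2.48%). With 1 library left out 0 (without R819) to 16 (without R844) were called, fits whose share of all genes called is not given here. Tekt1, a filament protein of cilia, rose, with 1.34, 2.67, 3.19 and 2.74 CPM in R844, R915, R942 and R954, against 1.24, 1.22 and 1.03 CPM in WT non-diabetic retinas (log2 fold change 1.09 ± 0.25, edgeR adjusted p = 0.0356). Without R915, R942 and R954 it was 0.20 and not called. Spag5, a spindle protein, rose by 0.35 ± 0.09 (edgeR adjusted p = 0.0462). Ovca2, a serine hydrolase that overlaps Dph1, had 18.6, 22.3, 21.1 and 23.8 CPM in WT diabetic and 29.8, 34.3 and 29.8 CPM in WT non-diabetic retinas (−0.55 ± 0.08, edgeR adjusted p = 0.00954), a call that ended without R819 (−0.47). Only 41.8% of the Ovca2 sequence is unique. Derl2, which draws misfolded proteins out of the endoplasmic reticulum, Timm22 of the mitochondrial import machinery, the filamin partner Rflnb and the folate carrier Slc46a1 fell by 0.28 ± 0.06, 0.25 ± 0.06, 0.76 ± 0.18 and 0.24 ± 0.06 (edgeR adjusted p = 0.035, 0.0405, 0.0436 and 0.0462).

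Of 14 libraries left out in turn, the call ended for 1 in Ovca2, for 8 in Tekt1 and in Derl2, for 11 in Rflnb, for 12 in Spag5, and for 13 in Timm22 and in Slc46a1. The range of the log2 change over those fits was 0.95 to 1.29 for Tekt1, −0.33 to −0.25 for Derl2, −0.89 to −0.58 for Rflnb, 0.25 to 0.41 for Spag5, −0.26 to −0.23 for Timm22 and −0.27 to −0.20 for Slc46a1. Without R915, R942 and R954, Ovca2 stayed called (−0.75, edgeR adjusted p = 0.0381), and Derl2, Timm22, Rflnb and Slc46a1 had −0.14, −0.32, −0.59 and −0.15 and were not called. With all libraries 6330403K07Rik, P2rx5 and Itgae had log2 fold changes of −1.31 ± 0.53, −1.44 ± 0.42 and −1.34 ± 0.50 with diabetes in WT retinas and were not called (edgeR adjusted p = 0.19, 0.0786 and 0.155). Without R844 they changed by −2.62, −2.32 and −2.44 and were called (edgeR adjusted p = 3.52e-08, 7.49e-06 and 8.86e-05), and without R915, R942 and R954 the values were 0.17, −0.19 and 0.03. In KO retinas no member was called for diabetes (background 0%), and 1 was called by DESeq2. At an unadjusted edgeR p under 0.05 there were 16 of 171 members, against 1855 of 20979 genes. The retina interaction, a description as in kidney, was called for no member (background 0.124%), with 2 called by DESeq2 and 7 by edgeR without R844. Its unadjusted edgeR p was under 0.05 for 17 of 171 members, against 2157 of 20979 genes. The share of all genes called by DESeq2 or without R844 is not given here.

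The kidney libraries held proximal tubule markers in every group, with summed levels of 4700 to 7434 CPM in KO and 5380 to 8235 CPM in WT non-diabetic kidneys, beside the diabetic ones given above. Cone markers, summed, had 1029 to 1200 CPM in KO retinas and 962 to 1226 CPM in WT non-diabetic retinas. In WT diabetic retinas they had 1040 CPM in R844 and 774, 866 and 866 CPM in R915, R942 and R954, which were below every other retina. Of the 4 cone markers 0 were called for diabetes in WT retinas, and the part of cone content in the members' levels was not tested. Lens markers varied among the retinas, with 361 to 958 CPM in KO diabetic, 32.9 to 93.3 CPM in WT diabetic, 60.4 to 128.5 CPM in KO non-diabetic and 63.8 to 1133 CPM in WT non-diabetic libraries. R844 had 38.3 CPM of lens markers, and R915, R942 and R954 had 43.7, 93.3 and 32.9 CPM. Of the 4 lens markers tested in retina, 4 were called lower for diabetes in WT mice and 4 higher for the interaction. In KO against WT retinas, 3 were called higher in diabetic and 2 lower in non-diabetic mice. The part of lens tissue in the members' levels was not tested.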

How the data were processed

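RNA of 16 kidney and 14 retina libraries was analysed from gene tables. The authors deposited expected counts and TPM per gene for each library. Per the submitters' processing notes, Trim Galore 0.6.4, kallisto 0.4.6 and the build GRCm38.p6 were used, and whether counting used strand is not given in the sources used here. Of the deposited expected counts, 35% of values were not whole, and they were rounded. Of 55385 gene IDs, 241 did not match GENCODE M21. In R 4.3.3, edgeR 4.0.16 was fitted per organ to 4 groups (TMM normalization, filterByExpr, quasi-likelihood test) over 18177 genes in kidney and 20979 in retina, and a call is a Benjamini-Hochberg adjusted p under 0.05. CPM were computed on the normalised library sizes. Standard errors are the log2 fold change divided by the square root of F. Unique sequence is the percent of a gene's 31-mers found in no other gene. Alternatives used DESeq2 1.42.0, limma 3.58.1 on log2(TPM + 1), other scaling, filter or fit, covariates (sex read from Xist and Y-linked counts, mitochondrial share) and libraries left out. The fit was tested on simulated data. Genes were named by a rule: those in the choice of the stretch, up to 8 members per direction called with no overlap in both states, the diabetes calls of smallest p, members of fixed role lists, and those with outlying or opposite values. Other genes named in the text were chosen after their values were seen. The members and lists were chosen with earlier results of these data known. A few genes named by the rule and respiratory chain families were left out.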

Additional observations from a re-analysis of the deposited data

Results flagged for a closer look

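Among 82 groups of 4 or more libraries of named members, 10 had a library far from the others of its group. The rule flags about 5% of groups by chance. Some members were named for outlying values, and 1 library can be flagged for several members, so the count of 10 is not read against that share. In WT diabetic retinas, R844 stood above the rest for 6330403K07Rik (156 CPM, others 20.4 to 24.2), P2rx5 (10.9 CPM, others 2.39 to 2.64), Itgae (6.05 CPM, others 0.988 to 1.27) and Asgr1 (1.93 CPM, others 0.448 to 0.586). In KO non-diabetic retinas, R582 was high for Itgae, at 1.42 CPM (others 0.733 to 0.805). In WT non-diabetic kidneys, K812 was low for 6330403K07Rik, at 2.69 CPM (others 7.05 to 7.63), and K819 was high for Spns3, at 6.59 CPM (others 2.70 to 3.08). In KO non-diabetic kidneys, K582 was low for P2rx5, at 6.17 CPM (others 8.04 to 8.15), and high for Slc16a11, at 26.3 CPM (others 21.2 to 21.7). In WT diabetic kidneys, K844 was high for Proca1, at 2.01 CPM (others 1.06 to 1.12).

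Within a diabetic state, 3 members had every KO library on one side of every WT library in kidney and on the other side in retina: Haspin and Dbil5 in non-diabetic mice, and Abr in each state. The log2 fold changes in non-diabetic kidney and retina were 1.01 and −1.50 for Haspin, 0.44 and −0.18 for Abr, and −0.48 and 0.48 for Dbil5. In diabetic mice they were 0.48 and −0.23 for Abr. Dbil5 had 6 to 12 counts in each non-diabetic kidney. The share of all genes split in this way is not given here, so the count of 3 is not read as particular to the members. Within 1 organ, no overlap in either direction was seen for 3.86% of all genes in non-diabetic kidney and 13.5% in non-diabetic retina. In diabetic mice it was seen for 15.3% in kidney and 13.3% in retina. These differences between organs were not tested.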

How the results depend on the processing

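No paired analysis was possible because within an organ each animal is in 1 group only, so the groups compared share no animal number. Among the genes rerun under every setting, no called value changed direction, though uncalled ones did (6330403K07Rik for diabetes in WT retinas had −1.31, and 0.17 without R915, R942 and R954). Members called for KO against WT in diabetic kidneys (73) numbered 43 with no expression filter, 37 in a fit of the 2 groups alone, 13 with limma on TPM, 18 with the mitochondrial share and 40 without K861 and K591, and 20 (without K645) to 96 (without K596) with 1 library left out. In non-diabetic kidneys (5) they were 3 in the 2-group fit, 10 with DESeq2, 3 with limma and 3 (without K584) to 6 (without K812). In diabetic retinas (4) they were 8 with no filter, 0 in the 2-group fit, 10 with DESeq2, 1 with limma, 2 with the mitochondrial share, 7 without R915, R942 and R954, and 0 (without R587) to 7 (without R844). In non-diabetic retinas (8) they were 13 with DESeq2 and 1 (without R852) to 12 (without R844). For diabetes in WT kidneys (18) they were 28 with DESeq2, 3 with limma, 30 with sex and 7 (without K597) to 34 (without K596), and in KO kidneys (0) 2 with DESeq2 and 0 to 18 (without K596). In WT retinas (7) they were 0 in the 2-group fit, 3 with limma, 1 with the mitochondrial share, 1 without R915, R942 and R954, and 0 (without R819) to 16 (without R844), and in KO retinas (0) 1 with DESeq2 and 0 to 0. The kidney interaction (0) had 18 with DESeq2, 1 with limma, 16 with sex and 0 to 66 (without K596), and the retina interaction (0) 2 with DESeq2 and 0 to 7 (without R844). Members without overlap in TPM numbered 11 for KO against WT in non-diabetic kidneys (20 in CPM) and 25 for diabetes in WT kidneys (42 in CPM). The share of all genes without overlap in TPM is not given here, so the excess over background in CPM cannot be judged on that scale. For fits other than the main one, the share of all genes called is not given here, so their counts are not read as particular to the members. The causes of these changes in count were not tested. Low counts limit fold changes of Alox15 and Tm4sf5 in KO kidneys.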
